A study of Mus musculus with 8 samples.

Results

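A set of 33 genes of the endoplasmic reticulum (ER) stress and amino acid response was followed in MC3T3-E1, a mouse line of osteoblast precursors from cranial bone that can be driven to form bone-like matrix in culture. The genes were taken by symbol from the table of read counts, which holds 28901 genes, and all 33 were found there and passed the filter on low counts. They were kept as 2 branches, an ATF4 amino acid branch of 19 genes and an ER chaperone branch of 14 genes. The 8 libraries form 4 groups of 2, which the labels name Brd, control, NM-Brdi and NM-DMSO. Every library is labelled as osteoblastic MC3T3-E1 cells, with no genetic change named. The series text describes cells given DMSO or 10 µM I-BRD9, a compound that binds the bromodomain of BRD9, a subunit of a chromatin remodelling complex. It adds that an osteogenic medium holds glycerol phosphate, ascorbic acid and 0.1 µM dexamethasone. The sources used here do not give which group received which agent or medium, for how long, or what NM stands for, so the groups are called by their labels. No label says whether paired libraries were grown as separate cultures, so p-values here cover only library-to-library spread, part of which can be technical.

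ATF4 is a transcription factor whose mRNA is translated when the initiation factor eIF2 alpha is phosphorylated, as happens when amino acids run short or when misfolded protein collects in the ER. Its targets import amino acids, make serine, glycine and asparagine, and include further transcription factors. The ER chaperone genes are switched on mainly by the cleaved form of ATF6 and by spliced XBP1, and their products fold secreted protein or send misfolded protein for degradation. In osteoblasts, which secrete large amounts of collagen, ATF4 is also known for its part in bone matrix production.

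The motifs through which each branch is known to be controlled were searched on both strands of the RefSeq promoter windows (build GRCm38.p6, 250 bases before to 50 after the start), which were matched for 17 ATF4 branch members and 12 ER chaperone branch members. No window was matched for Aldh1l2, Slc7a5, Hyou1 and Manf. The C/EBP-ATF response element (CARE, TGATGNAAN) was found in 6 of the 17 ATF4 branch windows (Atf3, Trib3, Asns, Chac1, Slc7a11 and Vldlr) and in the window of Herpud1, against 4.5% of the 27025 genes with a window. The ER stress response element (ERSE, CCAAT and CCACG separated by any 9 bases) was found in 6 of the 12 ER chaperone branch windows (Hspa5, Hsp90b1, Pdia6, Dnajc3, Calr and Creld2) and in 0 of the 17 ATF4 branch windows, against 0.137% of genes. ERSE-II (ATTGG and CCACG separated by 1 base) was found for Herpud1, against 0.0444% of genes. The element TGACGTGG was found in 0 windows of either branch, against 0.714% of genes. A match describes these letters only and is not evidence that a factor binds there. The stretches below hold these motifs, which are the letters the counts rest on, and each is written 5′ to 3′ on the strand of its gene, with the whole motif in capitals. A motif that lies on the opposite strand therefore reads as its reverse complement. For Trib3, Asns, Vldlr and Hspa5, where the stretch overlaps an exon of GENCODE M21, the motif alone is shown.
Trib3 (CARE, opposite strand, chr2:152344039-152344047, minus strand gene): TTTACATCA
Asns (CARE, gene strand, chr6:7693224-7693232, minus strand gene): TGATGAAAC
Vldlr (CARE, opposite strand, chr19:27216819-27216827, plus strand gene): GTTGCATCA
Chac1 (CARE, opposite strand, chr2:119351028-119351076, plus strand gene): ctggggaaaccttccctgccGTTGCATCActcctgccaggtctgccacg
Atf3 (CARE, opposite strand, chr1:191183416-191183464, minus strand gene): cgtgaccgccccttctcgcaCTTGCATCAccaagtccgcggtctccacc
Slc7a11 (CARE, gene strand, chr3:50443651-50443699, minus strand gene): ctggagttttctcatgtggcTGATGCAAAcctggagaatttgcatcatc
Herpud1 (CARE, opposite strand, chr8:94386296-94386344, plus strand gene): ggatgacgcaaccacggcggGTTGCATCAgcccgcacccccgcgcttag
Herpud1 (ERSE-II, gene strand, chr8:94386357-94386407, plus strand gene): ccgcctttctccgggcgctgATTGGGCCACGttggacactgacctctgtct
Hspa5 (ERSE, gene strand, chr2:34772025-34772043, plus strand gene): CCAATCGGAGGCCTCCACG
Hsp90b1 (ERSE, gene strand, chr10:86705618-86705676, minus strand gene): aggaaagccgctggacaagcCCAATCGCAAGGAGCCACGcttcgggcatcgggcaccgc
Hsp90b1 (ERSE, opposite strand, chr10:86705513-86705571, minus strand gene): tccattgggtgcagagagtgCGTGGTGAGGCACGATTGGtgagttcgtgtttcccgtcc
Calr (ERSE, opposite strand, chr8:84847055-84847113, minus strand gene): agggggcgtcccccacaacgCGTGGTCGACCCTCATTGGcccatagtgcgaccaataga
Pdia6 (ERSE, gene strand, chr12:17266471-17266529, plus strand gene): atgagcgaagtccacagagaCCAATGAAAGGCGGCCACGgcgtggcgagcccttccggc
Dnajc3 (ERSE, gene strand, chr14:118937807-118937865, plus strand gene): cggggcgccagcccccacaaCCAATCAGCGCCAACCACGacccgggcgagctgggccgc
Creld2 (ERSE, opposite strand, chr15:88819500-88819558, plus strand gene): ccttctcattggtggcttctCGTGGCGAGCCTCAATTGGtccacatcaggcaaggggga
Herpud1 was the only member matched here with motifs of both kinds, and Hsp90b1 held a pair of ERSE matches. Slc7a11 held a second CARE on the opposite strand, which lies in the lower-case letters after its capitals.

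The libraries held 16918182 to 24555028 counted reads each, so that 1 count per 1000000 reads (CPM, on TMM-scaled library sizes) stood for 16.39 to 26.11 reads. The 2 NM-DMSO libraries stood apart from each other. Among 10954 genes with a mean of at least 10 CPM, 590 differed over 2-fold between them, against 4 in NM-Brdi and 0 in Brd and in control. NM-DMSO replicate 1 also had the highest share of reads on processed pseudogenes, 22.9% against 15.9% to 19.3% in the other 7 libraries, and the lowest mitochondrial share, 2.86% against 3.10% to 3.38%. The 10 osteoblast markers summed to 9800.5 to 10049 CPM in Brd, against 11220 to 11954 CPM in control, and to 6334 to 6597.9 CPM in NM-Brdi, against 8034 to 9754.8 CPM in NM-DMSO. At an adjusted p under 0.05 by edgeR's quasi-likelihood test, 5 of the 10 were lower in Brd than in control, beside 3.45% of tested genes. In NM-Brdi against NM-DMSO 6 of the 10 were lower, beside 1.05%. In value 8 and 10 of the 10 were lower in these 2 comparisons. Their part in the results below was not tested. The 6 macrophage markers summed to 6.32 to 13.4 CPM, with Ptprc, Adgre1 and Itgam under 1 CPM in all libraries, and 3 skeletal muscle markers to 9.65 to 17.8 CPM. The endothelial, epithelial and adipocyte markers summed to at most 0.695 CPM per list. In bulk RNA a change in the share of cells of one state and a change in RNA per cell cannot be told apart.

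Per kilobase of exon, the most abundant members in Brd libraries were Hspa5 at 197 CPM per kb, Calr at 188, Atf4 at 156 and Pdia4 at 103 CPM per kb. Hspa5 encodes BiP, the main ER chaperone of the Hsp70 family, and Calr encodes calreticulin, a lectin chaperone of glycoproteins. The least abundant were Slc7a11 at 0.382 and Atf3 at 1.17 CPM per kb. Brd was the only group with Hspa5 above Calr. Control libraries had 181 CPM per kb for Calr against 177 for Hspa5. For NM-Brdi libraries these levels were 166 against 161 CPM per kb. The gap was widest for NM-DMSO libraries, at 208 CPM per kb for Calr against 179 for Hspa5. The map of all members by library sets these values side by side.

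**Figure D1:**
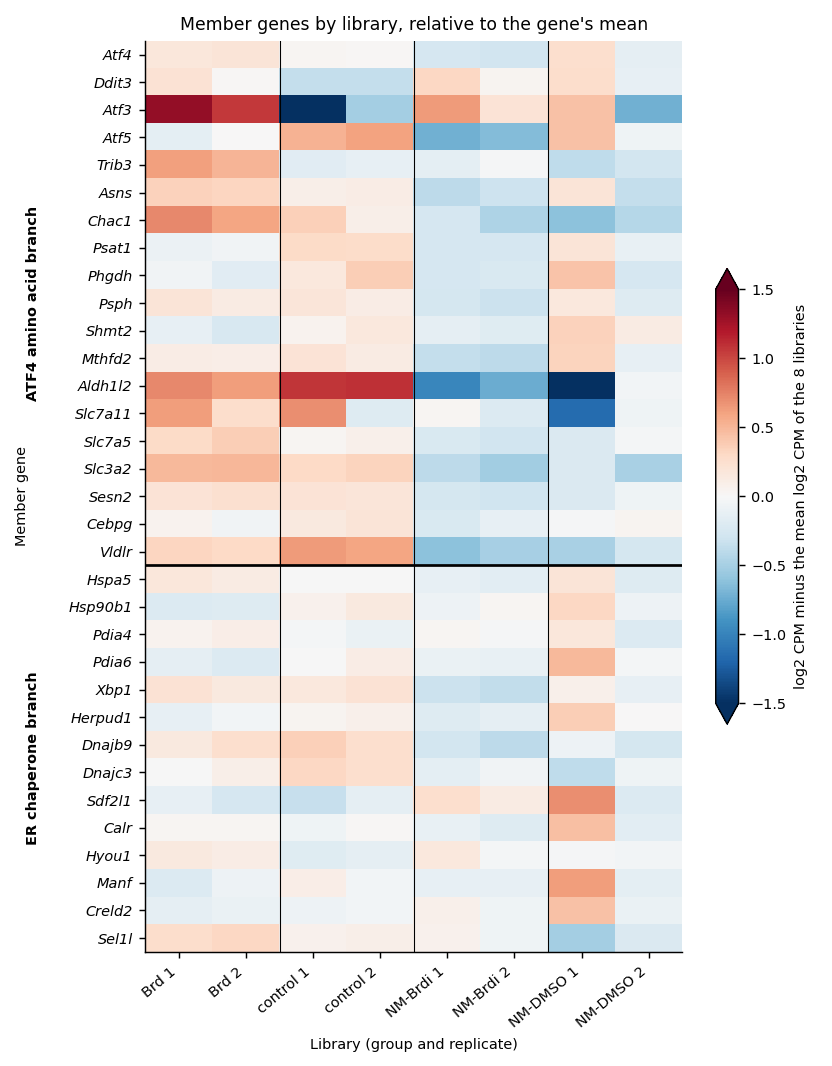
Level of each member in each library as log2 CPM minus the gene's mean over the 8 libraries (color scale, ending at 1.5 in either direction), with the 19 ATF4 branch members above the line and the 14 ER chaperone branch members below it. Of the ER chaperone branch members, 9 of 14 had their highest value in NM-DMSO replicate 1, and Aldh1l2 had its lowest value there.

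The comparison of Brd with control addressed the effect of the condition labelled Brd. Trib3, which encodes a pseudokinase induced by ATF4 that in turn restrains ATF4, rose 1.63-fold in Brd libraries. It was the 1 member of the ATF4 branch called in either direction, and no ER chaperone branch member was called. Trib3 (ENSMUSG00000032715.9, chr2:152337422-152344032 in GRCm38, GENCODE M21) had 22.6 and 21.0 CPM in Brd libraries, against 13.1 and 13.6 CPM in control libraries. Both Brd values lay above both control values and above all 4 NM values. The log2 fold change was 0.71 (SE 0.13, 95% interval 0.40 to 1.01, adjusted p = 0.0203 by edgeR's quasi-likelihood test over 17038 genes).

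That 1 of 19 ATF4 branch members was called higher stands beside 3.13% of all tested genes called higher, and 0 of 19 called lower beside 3.45% called lower. Of the ER chaperone branch 0 of 14 were called in either direction. At an unadjusted p under 0.05 there were 9 of 19 ATF4 branch members and 1 of 14 ER chaperone branch members, Hyou1, beside 20.2% of all tested genes. The DESeq2 Wald test called 2 ATF4 branch members higher, Atf3 and Trib3, and 1 lower, Atf5, where it called 3.59% of genes higher and 4.21% lower, and it called 0 ER chaperone branch members. The median log2 fold change was 0.03 over the ATF4 branch and -0.03 over the ER chaperone branch, against 0.001 over all tested genes. A fit of the 4 Brd and control libraries alone called 8 ATF4 branch members higher and 7 lower, where it called 19.9% of 16041 genes higher and 20.1% lower. In that fit 4 ER chaperone branch members were called higher and 4 lower.

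The transcription factors of the ATF4 branch had log2 fold changes of both signs in Brd against control. Atf4 itself had 365 and 370 CPM in Brd libraries, against 330 and 328 CPM in control libraries, which is 0.16 on the log2 scale with an SE of 0.13 and an adjusted p of 0.602. The Brd values were the higher ones, and the groups did not overlap, but the difference missed the threshold in the fit of 8 libraries. In the fit of the 4 libraries alone it was 0.16 as well, with an SE of 0.04 and an adjusted p of 0.000424 by edgeR's quasi-likelihood test. Mthfd2 and Calr did not overlap between the groups either, at log2 fold changes of -0.06 and 0.05. Lack of overlap between 2 and 2 libraries is therefore given as a description only, and its share over all tested genes was not counted. Ddit3, which encodes the pro-apoptotic factor CHOP, had 30.3 and 26.3 CPM in Brd libraries, against 20.3 and 20.3 CPM in control libraries. Its log2 fold change was 0.48 (SE 0.17, adjusted p = 0.160), and the Brd values were again both the higher ones. Atf3, an immediate-early stress factor that was barely expressed, had 2.75 and 2.30 CPM in Brd libraries, against 0.206 and 0.774 CPM in control libraries. Its log2 fold change of 2.39 had an SE of 0.60 and an adjusted p of 0.0601, and was 1.70 without control replicate 1 and 3.58 without control replicate 2, neither past the threshold. The control libraries were the lowest and the third lowest of all 8. By the DESeq2 Wald test the log2 fold change of Atf3 was 2.38 (SE 0.71, adjusted p = 0.0139).

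Atf5, a bZIP factor whose mRNA is translated under the same control as that of Atf4, lay on the other side. It had 109 and 122 CPM in Brd libraries, against 174 and 184 CPM in control libraries, with no overlap. The log2 fold change was -0.64 (SE 0.16, adjusted p = 0.0623 by edgeR's quasi-likelihood test), and DESeq2 gave -0.64 with an adjusted p of 0.0115. Cebpg, a C/EBP partner of ATF4, had a log2 fold change of -0.16 (adjusted p = 0.422). The reads of Atf5 carry a limit, since 82 nt of its exons overlap those of Nup62 on the opposite strand, and the sources used here do not give the strand setting of the counting.

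No enzyme passed the threshold in the fit of 8 libraries. Asns, asparagine synthetase, had 118 and 116 CPM in Brd libraries, against 98.3 and 99.7 CPM in control libraries (log2 fold change 0.24, SE 0.17, adjusted p = 0.501). Chac1, which degrades glutathione, had 33.1 and 30.2 CPM in Brd libraries, against 25.6 and 21.4 CPM in control libraries (0.43, SE 0.15, adjusted p = 0.142). For both genes the Brd values were the higher ones without overlap. Psat1, phosphoserine aminotransferase, had 269 and 275 CPM in Brd libraries, against 350 and 345 CPM in control libraries (-0.35, SE 0.12, adjusted p = 0.129). Phgdh, which catalyses the first step of serine synthesis, stood at -0.38 on the log2 scale (adjusted p = 0.409), and Psph, the phosphatase of the last step, had 0.01 (adjusted p = 0.988). Phgdh is uncertain, because the processed pseudogene Gm7901 is 98.7% identical to its transcript over 1597 nt. Gm7901 was counted at a mean of 276 CPM while Phgdh itself had 17.7 CPM. This pseudogene was called lower in Brd libraries, at -0.47 (SE 0.10, adjusted p = 0.0327 by edgeR's quasi-likelihood test). In control against NM-DMSO it was called higher, at 0.53 (adjusted p = 0.0133 by the same test). Psph shares 452 nt of exon with Cct6a on the opposite strand.

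Of the mitochondrial one-carbon enzymes, Shmt2, which moves a carbon unit from serine to folate, stood at -0.29 on the log2 scale, with an SE of 0.11 and an adjusted p of 0.193, and Mthfd2, the next enzyme of that route, had -0.06 (SE 0.15, adjusted p = 0.897). Aldh1l2, a mitochondrial formyltetrahydrofolate dehydrogenase, had 188 and 176 CPM in Brd libraries, against 240 and 244 CPM in control libraries. The Brd libraries were lower without overlap. The log2 fold change of -0.41 had an SE of 0.43 in the fit of 8 libraries, which includes the widely spread NM-DMSO values of this gene, and an SE of 0.04 in the fit of the Brd and control libraries alone. Exons of Aldh1l2 share 1056 nt with D10Wsu102e on the opposite strand.

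Among the transporters and other targets, Slc7a5 and Slc3a2, the light and heavy chain of the transporter of large neutral amino acids, had log2 fold changes of 0.28 (SE 0.10, adjusted p = 0.165) and 0.18 (SE 0.11, adjusted p = 0.441). Slc7a11, the cystine transporter, was too low and too variable to compare, with 5.98 and 4.66 CPM in Brd libraries, against 6.27 and 3.39 CPM in control libraries. In addition, 373 nt of its transcript are 96.2% identical to Tuba1b, which was counted at a mean of 511 CPM. Sesn2, a leucine sensor that restrains mTORC1, had a log2 fold change of 0.03 (adjusted p = 0.920). Vldlr, the very low density lipoprotein receptor, had 37.0 and 36.4 CPM in Brd libraries, against 46.2 and 44.7 CPM in control libraries (-0.31, SE 0.12, adjusted p = 0.192). In the fit of the 4 libraries alone, the 8 members called higher were Atf4, Ddit3, Atf3, Trib3, Asns, Chac1, Slc7a5 and Slc3a2. The 7 called lower were Atf5, Psat1, Phgdh, Shmt2, Aldh1l2, Cebpg and Vldlr.

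**Figure D2:**
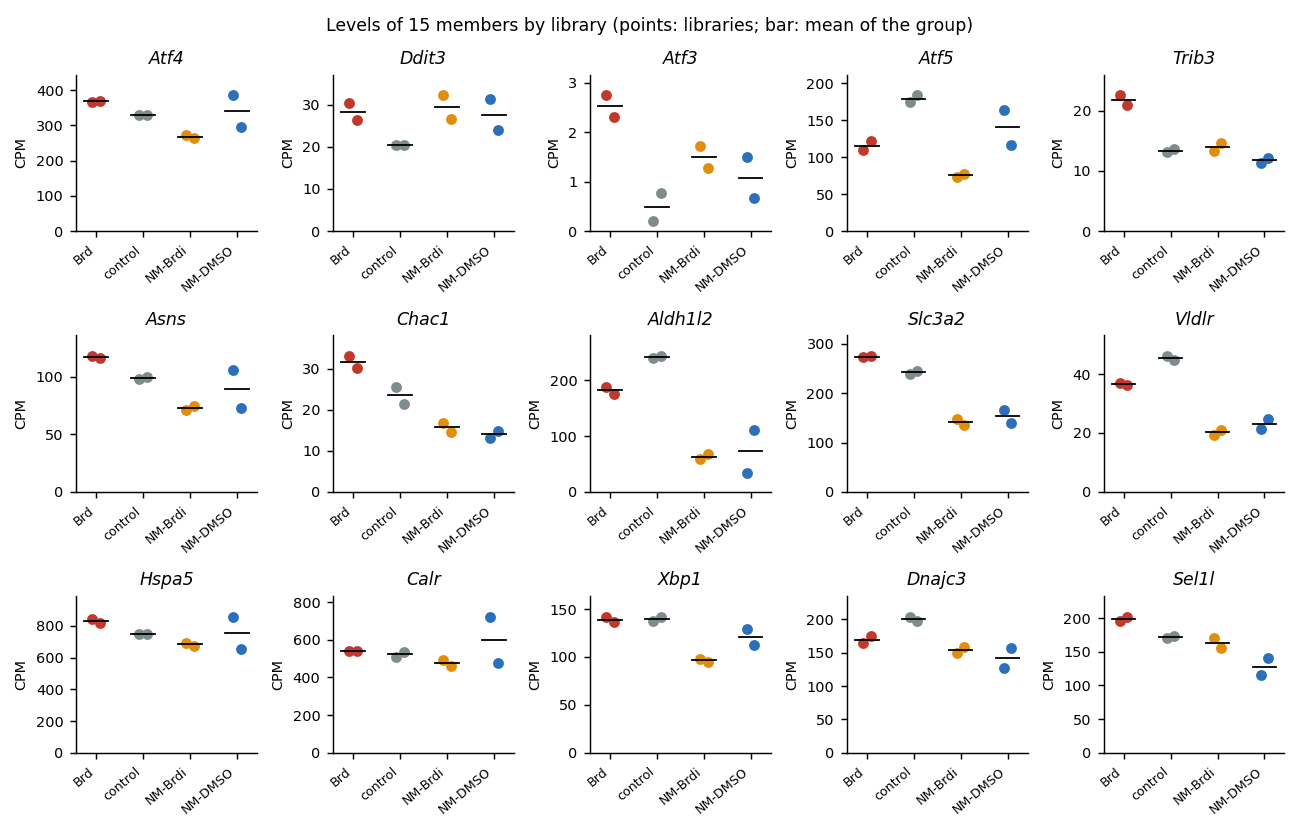
CPM of 15 members in each library (points), with the group mean as a bar, Brd and control at the left and NM-Brdi and NM-DMSO at the right of each panel, and a linear axis from 0. Trib3 stood at 22.6 and 21.0 CPM in Brd and at or below 14.6 CPM in all other libraries, while the NM-DMSO points of Aldh1l2 lay at 34.2 and 111 CPM.

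The ER chaperone branch differed little between Brd and control. Hspa5 had 846 and 819 CPM in Brd libraries, against 748 and 749 CPM in control libraries (log2 fold change 0.15, SE 0.13, adjusted p = 0.617). Its partner Hyou1, an Hsp110-type exchange factor of the ER, had 121 and 118 CPM in Brd libraries, against 96.0 and 99.2 CPM in control libraries (0.29, SE 0.10, adjusted p = 0.143). Hsp90b1, the ER form of Hsp90, lay the other way, with 188 and 190 CPM in Brd libraries, against 227 and 239 CPM in control libraries (-0.30, SE 0.14, adjusted p = 0.268). None of these 3 differences passed the threshold in the fit of 8 libraries. Xbp1, which encodes the factor activated by splicing, had 142 and 136 CPM in Brd libraries, against 137 and 142 CPM in control libraries, so the groups overlapped. The counts do not separate spliced from unspliced Xbp1. The log2 fold changes of all 14 members ran from -0.30 to 0.29, and all 14 intervals at 95% lay within a log2 fold change of 1 in either direction, with a median half-width of 0.30. In the fit of the 4 libraries alone, Hspa5, Pdia4, Hyou1 and Sel1l were called higher and Hsp90b1, Pdia6, Dnajc3 and Manf lower. Exons of Hsp90b1 share 415 nt with 1810014B01Rik, and those of Manf 146 nt with Dcaf1, each on the opposite strand. Pdia4 and Pdia6, which encode protein disulfide isomerases, stood at 0.15 (95% interval -0.16 to 0.45) and -0.22 (95% interval -0.59 to 0.15). Both intervals, from the fit of 8 libraries, held 0. Of the remaining members Calr had 0.05, Herpud1 -0.14, Dnajb9 -0.10, Sdf2l1 0.05 and Creld2 -0.06 as log2 fold change.

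The Brd calls moved with the libraries in the fit. Without NM-DMSO replicate 1, 15 ATF4 branch and 7 ER chaperone branch members were called, where 31.5% of genes were. Without NM-DMSO replicate 2, 14 and 7 members were called, where 31.2% of genes were. Without any 1 of the other 6 libraries no member of either branch was called, where 0.202% to 3.37% of genes were, and the log2 fold change of Trib3 ran from 0.65 to 0.76 over the 8 fits that left out 1 library, with adjusted p-values up to 0.203.

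In the NM pair the comparison of NM-Brdi with NM-DMSO addressed the effect of the condition labelled NM-Brdi. Atf5 fell 1.86-fold in NM-Brdi libraries and was the 1 member called. It had 73.7 and 77.1 CPM in NM-Brdi libraries, against 164 and 116 CPM in NM-DMSO libraries. The NM-Brdi values were the lowest of all 8 libraries, and the NM-DMSO values lay far from each other. The log2 fold change of Atf5 (ENSMUSG00000038539.15, chr7:44812256-44816658 in GRCm38) was -0.89 (SE 0.16, 95% interval -1.27 to -0.51, adjusted p = 0.0430 by edgeR's quasi-likelihood test). DESeq2 gave -0.89 with an adjusted p of 0.000179. With the replicate number as a block it was -0.89 with an adjusted p of 0.074, which is not a call. The call was also lost without any 1 of the 6 Brd, control and NM-Brdi libraries. The log2 fold change was -0.61 without NM-DMSO replicate 1 and -1.12 without replicate 2. Those fits held 1 NM-DMSO library each, so the spread within that group did not enter them. In the fit of the 4 NM libraries alone, 0 of all genes and so 0 members were called.

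Of 19 ATF4 branch members 0 were called higher beside 0.816% of tested genes, and 1 was called lower beside 1.05%. Of 14 ER chaperone branch members 0 were called either way. At an unadjusted p under 0.05 there were 5 of 19 ATF4 branch and 3 of 14 ER chaperone branch members, beside 21.6% of all tested genes. DESeq2, which called 2.15% of genes higher and 3.15% lower, called Atf5 alone. The median log2 fold change was -0.19 over the ATF4 branch and -0.16 over the ER chaperone branch, against -0.004 over all tested genes. In value 14 of 19 and 10 of 14 members were lower in NM-Brdi libraries.

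The size of several of these differences depended on which NM-DMSO library they were set against. Atf4 had 271 and 265 CPM in NM-Brdi libraries, against 386 and 294 CPM in NM-DMSO libraries (log2 fold change -0.34, SE 0.13, adjusted p = 0.197). Asns had 70.7 and 74.4 CPM in NM-Brdi libraries, against 106 and 72.5 CPM in NM-DMSO libraries, so NM-DMSO replicate 2 lay among the NM-Brdi values and replicate 1 above them. Mthfd2 had 105 and 103 CPM in NM-Brdi libraries, against 170 and 124 CPM in NM-DMSO libraries (-0.50, SE 0.15, adjusted p = 0.137). Without NM-DMSO replicate 1, 0 ATF4 branch members were called higher and 6 lower, where 6.94% of genes were called higher and 7.22% lower. The 6 were Atf5, Shmt2, Mthfd2, Aldh1l2, Slc7a5 and Sesn2, with log2 fold changes from -0.81 for Aldh1l2 to -0.21 for Sesn2. Without NM-DMSO replicate 2, 2 ATF4 branch members were called higher and 9 lower, where 26.6% of genes were called higher and 27.8% lower.

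Aldh1l2 changed sign with the NM-DMSO library that was left out. It had 58.1 and 68.4 CPM in NM-Brdi libraries, against 34.2 and 111 CPM in NM-DMSO libraries. The NM-Brdi values thus lay between the NM-DMSO values. The log2 fold change was -0.81 without NM-DMSO replicate 1 and 0.89 without replicate 2, each past the threshold, and -0.20 (SE 0.43, adjusted p = 0.798) with all libraries. The stress factors Ddit3 and Atf3 overlapped between the groups. Ddit3 had 32.3 and 26.7 CPM in NM-Brdi libraries, against 31.3 and 23.9 CPM in NM-DMSO libraries, and Atf3 had 1.72 and 1.27 CPM in NM-Brdi libraries, against 1.49 and 0.668 CPM in NM-DMSO libraries. Trib3 had 13.3 and 14.6 CPM in NM-Brdi libraries, against 11.3 and 12.2 CPM in NM-DMSO libraries (0.24, SE 0.13, adjusted p = 0.305).

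No amino acid enzyme or transporter of the NM pair passed the threshold. Shmt2 had 85.8 and 82.9 CPM in NM-Brdi libraries, against 120 and 103 CPM in NM-DMSO libraries (log2 fold change -0.41, SE 0.11, adjusted p = 0.120), and Psat1 had 241 and 240 CPM in NM-Brdi libraries, against 328 and 265 CPM in NM-DMSO libraries (-0.30, SE 0.12, adjusted p = 0.195). In both genes each NM-Brdi value lay below each NM-DMSO value. Psph stood at -0.28 and Phgdh at -0.36, with the uncertainty named above. The transporter chains were close to level, at -0.14 for Slc7a5 (95% interval -0.37 to 0.10) and -0.11 for Slc3a2 (95% interval -0.37 to 0.15). Sesn2, Cebpg and Vldlr stood at -0.14, -0.19 and -0.18, and Chac1 at 0.17 and Slc7a11 at 0.42, none past the threshold.

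In the ER chaperone branch the NM-Brdi values often overlapped the NM-DMSO values, whose 2 libraries lay far apart. Hspa5 had 692 and 674 CPM in NM-Brdi libraries, against 858 and 657 CPM in NM-DMSO libraries, so the NM-Brdi values lay between. Calr had 492 and 463 CPM in NM-Brdi libraries, against 723 and 477 CPM in NM-DMSO libraries, an overlap as well. Xbp1 had 98.0 and 95 CPM in NM-Brdi libraries, against 129 and 112 CPM in NM-DMSO libraries (log2 fold change -0.32, SE 0.10, adjusted p = 0.156), and here the NM-Brdi values were the lowest of all 8 libraries. Sel1l, an adaptor of the ER ubiquitin ligase that clears misfolded protein, lay the other way, with 171 and 156 CPM in NM-Brdi libraries, against 115 and 140 CPM in NM-DMSO libraries (0.36, SE 0.12, adjusted p = 0.161). Herpud1, a membrane protein of ER-associated degradation, had 50 and 51.9 CPM in NM-Brdi libraries, against 73.8 and 57.4 CPM in NM-DMSO libraries (-0.36, SE 0.13, adjusted p = 0.180), without overlap. The remaining members ran from -0.41 for Manf to 0.12 for Dnajc3 on the log2 scale. Without NM-DMSO replicate 1, Pdia4, Sdf2l1, Sel1l and Xbp1 stood at 0.21, 0.40, 0.23 and -0.21. Without replicate 2 these 4 genes stood at -0.17, -0.50, 0.51 and -0.42. Sel1l and Xbp1 thus kept their sign, while the sign of 8 of 14 ER chaperone branch members differed between these fits. The share of all tested genes whose sign differed was not counted. Each of these fits held 1 NM-DMSO library, so the spread within that group did not enter it.

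**Figure D3:**
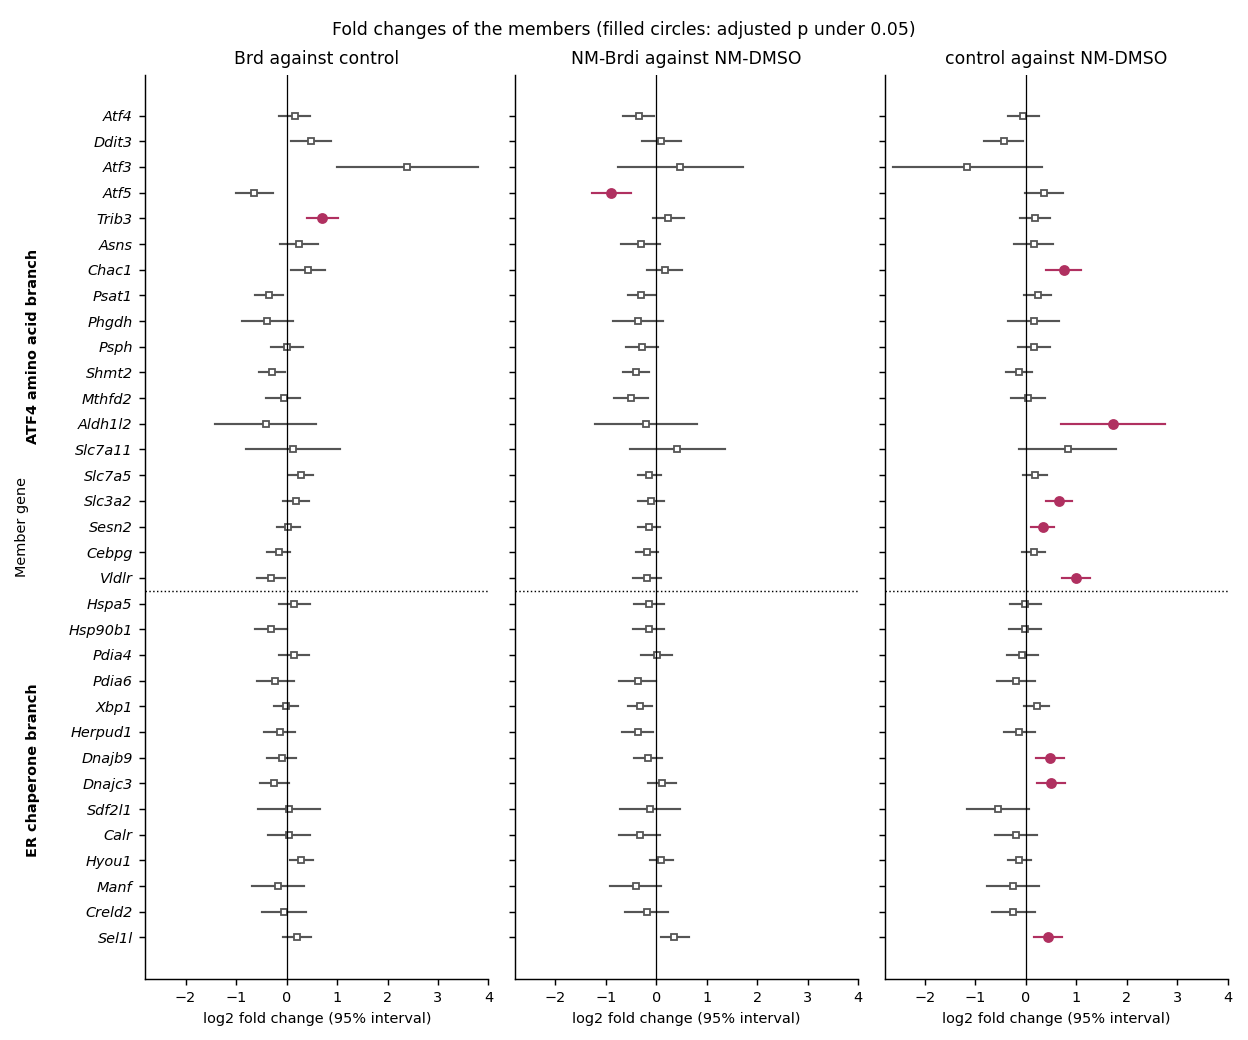
Log2 fold change of each member with its 95% interval (horizontal axis) for the Brd pair, the NM pair and control over NM-DMSO, with filled circles for members past an adjusted p of 0.05. Trib3 stands at 0.71 in the first comparison, Atf5 at -0.89 in the second, and 8 members in the third.

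Within the NM-DMSO group the ER chaperone branch was higher in replicate 1 for 12 of 14 members, with a median log2 ratio of 0.38, where 51.7% of all tested genes were higher there with a median of 0.024. The exceptions were Dnajc3, a co-chaperone that also inhibits the kinase PERK, and Sel1l. The widest gap was that of Sdf2l1, a partner of the ER DnaJ proteins, with 41.4 CPM in replicate 1 and 22.2 CPM in replicate 2. Manf, a small secreted ER stress protein, had 95.4 and 56.0 CPM. Of the 6 members with an ERSE match, Hspa5, Hsp90b1, Pdia6, Calr and Creld2 were higher in replicate 1 and Dnajc3 was lower. The members without an ERSE match or without a window were likewise higher there, apart from Sel1l, so the gap was not particular to ERSE members. NM-DMSO replicate 1 was the highest of the 8 libraries for 9 of 14 ER chaperone branch members, and for 33.5% of all tested genes. The ATF4 branch was divided, with 11 of 19 members higher in replicate 1 and a median log2 ratio of 0.26. Aldh1l2, at -1.70, and Slc7a11, with 1.74 and 3.70 CPM, were lower there, and Atf4, Asns, Phgdh and Mthfd2 were higher. Over 1.25-fold gaps between the 2 libraries were found for 10 of 19 and 9 of 14 members in NM-DMSO, where 58.8% of all tested genes had one. In each of the other 3 groups 0 ER chaperone branch members and 1 or 2 ATF4 branch members had such a gap, where 17.9% to 19.0% of all tested genes had one. The share of processed pseudogene reads and the mitochondrial share of replicate 1 move with these differences, and their part in them was not tested.

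**Figure D4:**
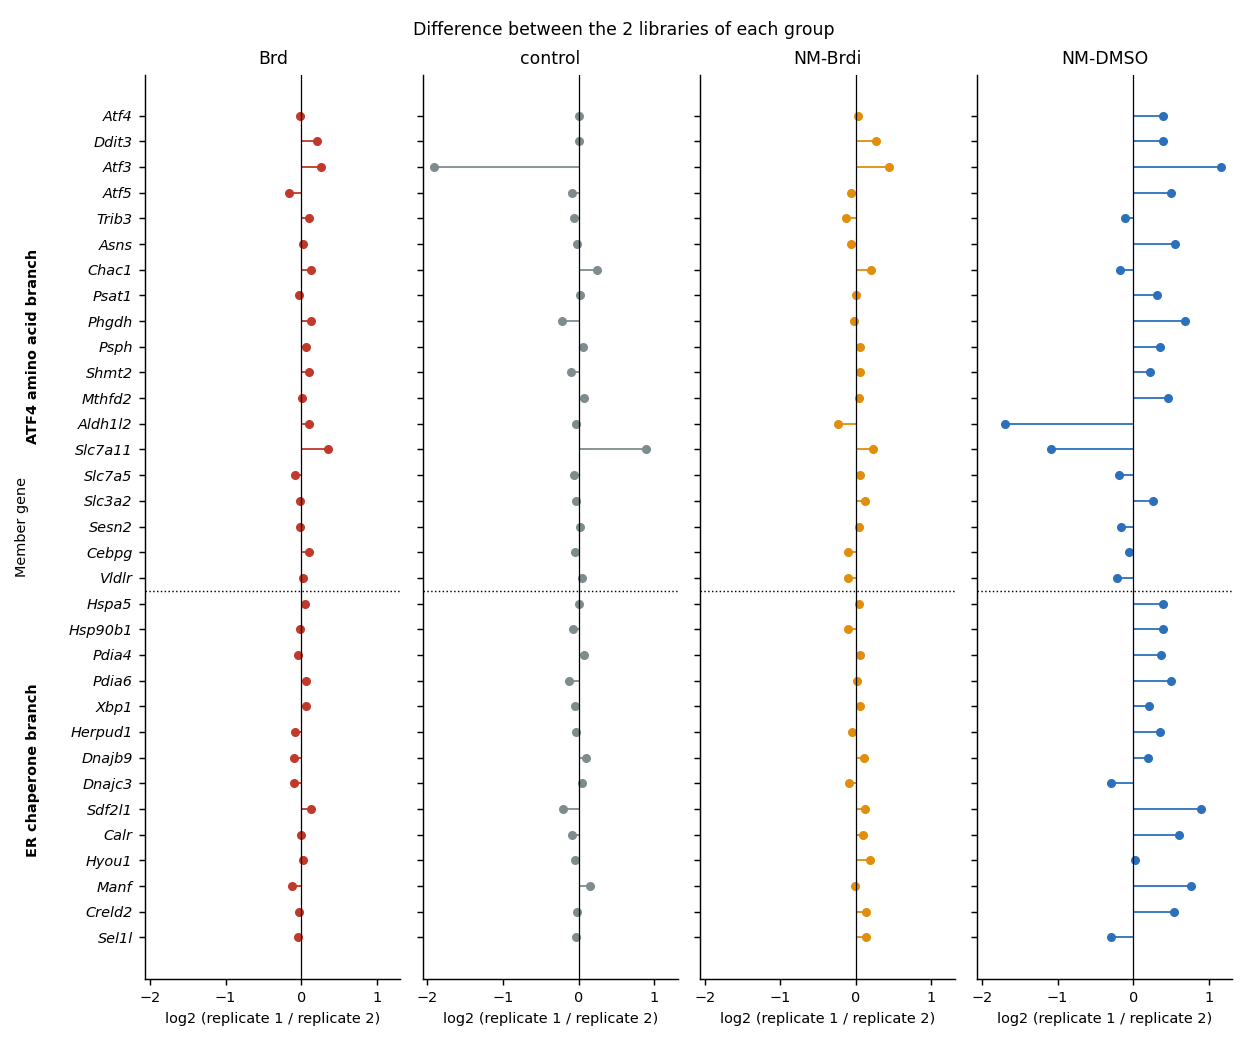
Log2 ratio of replicate 1 over replicate 2 for each member (horizontal axis) in each of the 4 groups. In NM-DMSO 12 of 14 ER chaperone branch members lie right of 0, up to 0.90 for Sdf2l1, whereas in the other groups no ER chaperone branch member is over 1.25-fold apart.

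The 2 fold changes, that of the Brd pair and that of the NM pair, were compared by an interaction term. None of the 33 members was called, beside 0.0117% of genes called higher and 0.0293% called lower, and 4 ATF4 branch members and 0 ER chaperone branch members had an unadjusted p under 0.05, beside 9.27% of all tested genes. DESeq2, which called 1.69% of genes, called 0 members. The 4 were Atf4 at a log2 difference of 0.50 (SE 0.19, adjusted p = 0.450), Slc7a5 at 0.42 (SE 0.14, adjusted p = 0.396), Trib3 at 0.46 (SE 0.18, adjusted p = 0.486) and Atf3 at 1.90 (SE 0.81, adjusted p = 0.532). All 4 were positive, so the log2 fold change of the Brd pair was the greater one. The difference for Trib3 was thus not shown to belong to one pair. Atf5, lower in value in both pairs, had a difference of 0.26 with a 95% interval of -0.27 to 0.79. Without NM-DMSO replicate 1, 3 ATF4 branch members and 1 ER chaperone branch member were called, where 9.04% of genes were, and without replicate 2, 10 and 10 members were called, where 42.3% of genes were. The differences of Atf4 and Slc7a5 were positive in both fits, at 0.28 and 0.69 for Atf4 and at 0.49 and 0.32 for Slc7a5. Each of these fits held 1 NM-DMSO library, so the spread within that group did not enter it.

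The control and NM-DMSO groups, which the labels do not describe further, differed at 8 of the 33 members and at 23.4% of all tested genes. In control libraries 5 of 19 ATF4 branch members were called higher and 0 lower, beside 12.0% of tested genes called higher and 11.5% lower. In the ER chaperone branch 3 of 14 were called higher and 0 lower. The median log2 fold change was 0.17 over the ATF4 branch and -0.10 over the ER chaperone branch, against -0.018 over all tested genes. This comparison shares its control libraries with the Brd comparison and its NM-DMSO libraries with the NM comparison. A fit of the 4 control and NM-DMSO libraries alone called 0 members of either branch, where it called 2.26% of genes.

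Vldlr had the smallest p of all members. It had 46.2 and 44.7 CPM in control libraries, against 21.2 and 24.6 CPM in NM-DMSO libraries, and all 4 Brd and control values lay above all 4 NM values. The log2 fold change was 0.99 (SE 0.12, adjusted p = 0.00213 by edgeR's quasi-likelihood test), and the call held in all 8 fits that left out 1 library, but not in the fit of the 4 control and NM-DMSO libraries alone, with an adjusted p of 0.059. Slc3a2 had 240 and 245 CPM in control libraries, against 167 and 139 CPM in NM-DMSO libraries (0.66, SE 0.11, adjusted p = 0.00904). Chac1 had 25.6 and 21.4 CPM in control libraries, against 13.1 and 14.9 CPM in NM-DMSO libraries (0.75, SE 0.15, adjusted p = 0.0159). Both were free of overlap. Aldh1l2 had 240 and 244 CPM in control libraries, against 34.2 and 111 CPM in NM-DMSO libraries (1.73, SE 0.44, adjusted p = 0.0324). Its log2 fold change was 1.12 without NM-DMSO replicate 1 and 2.82 without replicate 2, in fits that held 1 NM-DMSO library each. The call was lost without any 1 of the other 6 libraries. Sesn2 had 101 and 99.1 CPM in control libraries, against 75.0 and 83.7 CPM in NM-DMSO libraries (0.33, SE 0.10, adjusted p = 0.0444). That call held in 3 of the 14 other fits, and DESeq2 gave an adjusted p of 0.0539. These 5 genes act in lipoprotein uptake, amino acid transport, glutathione breakdown, folate metabolism and leucine sensing.

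The 3 ER chaperone branch members that were higher in control libraries are not the abundant chaperones. Dnajc3 had 204 and 197 CPM in control libraries, against 127 and 157 CPM in NM-DMSO libraries (log2 fold change 0.49, SE 0.12, adjusted p = 0.0285). Dnajb9, a DnaJ co-chaperone of BiP, had 38.0 and 35.5 CPM in control libraries, against 28.3 and 24.7 CPM in NM-DMSO libraries (0.47, SE 0.12, adjusted p = 0.0333). Sel1l had 171 and 174 CPM in control libraries, against 115 and 140 CPM in NM-DMSO libraries (0.44, SE 0.12, adjusted p = 0.0374). The control values were the higher ones in each of these. Hspa5 had 748 and 749 CPM in control libraries, against 858 and 657 CPM in NM-DMSO libraries, with control in between. Its log2 fold change of -0.02 had a 95% interval of -0.32 to 0.29.

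The sign of 8 of 14 ER chaperone branch members and 5 of 19 ATF4 branch members in this comparison differed between the fits that left out either NM-DMSO library. For all tested genes that share was not counted. Without NM-DMSO replicate 1, 12 ATF4 branch members were called higher and 0 lower, and 6 ER chaperone branch members higher and 0 lower, where 18.5% of genes were called higher and 15.9% lower. Without replicate 2, 8 ATF4 branch members were called higher and 5 lower, and 3 ER chaperone branch members higher and 9 lower, where 31.8% of genes were called higher and 32.1% lower. Hspa5 stood at 0.19 without replicate 1 and at -0.20 without replicate 2, and Hsp90b1 at 0.18 and -0.21. Atf4 turned likewise, with 0.16 and -0.23, and Mthfd2 with 0.28 and -0.17. Sdf2l1, Hyou1 and Xbp1 kept their sign, at -0.04 and -0.94 for Sdf2l1, -0.12 and -0.15 for Hyou1 and 0.32 and 0.11 for Xbp1. The serine synthesis enzymes Psat1, Phgdh and Psph, not called with all libraries, were called higher without replicate 1, at 0.39, 0.52 and 0.34. Vldlr, Slc3a2, Chac1, Aldh1l2, Sesn2, Dnajc3, Dnajb9 and Sel1l were higher in control libraries in both fits. Each of these fits held 1 NM-DMSO library, so the spread within that group did not enter it. Without a Brd, control or NM-Brdi library the calls were fewer, with 1 to 3 ATF4 branch members and 0 ER chaperone branch members, where 3.13% to 8.79% of genes were called.

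Other genes of the pathways were taken from 4 lists. Among 27 other ATF4 targets, 23 were tested, and 4 of them were called higher and 0 lower in Brd libraries. Of all tested genes 3.13% were called higher and 3.45% lower. The median log2 fold change of the 23 was -0.03. Slc1a4, a transporter of neutral amino acids, had 187 and 177 CPM in Brd libraries, against 105 and 108 CPM in control libraries (log2 fold change 0.78, adjusted p = 0.00573). Ero1l, an ER oxidase, rose by 0.75 on the log2 scale (adjusted p = 0.00981) and Jdp2, a bZIP factor, by 0.85 (adjusted p = 0.0113). Gdf15, a stress-induced cytokine, had 9.82 and 8.74 CPM in Brd libraries, against 4.53 and 3.69 CPM in control libraries (1.17, adjusted p = 0.0177). In each of these genes the Brd values lay above the control values. The other lists held 16 stress sensors, eIF2 alpha kinases and phosphatases, 20 cytosolic aminoacyl-tRNA synthetases and 39 tested genes of ER folding and degradation. Of these 0 were called in Brd against control by edgeR's quasi-likelihood test. In that order 3, 0 and 3 had an unadjusted p under 0.05, beside 20.2% of all tested genes. DESeq2 called 1, 0 and 1 of these genes, where it called 7.8% of all genes it tested.

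In the NM pair 0 of the 16 sensors, kinases and phosphatases and 0 of the 23 other ATF4 targets were called higher. In each list 1 gene was called lower. Of all tested genes 0.816% were called higher and 1.05% lower. Creb3l1, which encodes OASIS, an ER-anchored factor of osteoblasts that is released by cleavage, had 68.9 and 74.3 CPM in NM-Brdi libraries, against 144 and 132 CPM in NM-DMSO libraries. Its log2 fold change was -0.95, with an SE of 0.10 and an adjusted p of 0.00828, and both NM-Brdi values were the lowest of the 8 libraries. In the Brd pair Creb3l1 had 211 and 197 CPM in Brd libraries, against 178 and 181 CPM in control libraries, and the difference between the pairs was 1.13 (adjusted p = 0.0555). Nupr1, a stress-induced chromatin protein among the ATF4 targets, fell by 1.40 (adjusted p = 0.0302), with 9.96 and 11.3 CPM in NM-Brdi libraries, against 34.7 and 21.2 CPM in NM-DMSO libraries. None of the 20 aminoacyl-tRNA synthetases was called in the NM pair, although all 20 log2 fold changes were negative with a median of -0.36, and 10 had an unadjusted p under 0.05, beside 21.6% of all tested genes. Without NM-DMSO replicate 1 the median of the synthetases was -0.17, and without replicate 2 it was -0.55, with 18 of 20 negative in each fit. Of 39 genes of ER folding and degradation 0 were called, 31 were negative in value and the median was -0.26. An unadjusted p under 0.05 was found for 19 of them, again beside 21.6% of all tested genes. The median of the 39 genes was -0.08 without NM-DMSO replicate 1, with 26 negative, and -0.39 without replicate 2, with 30 negative. DESeq2 called 0 of the synthetases and 2 of the genes of ER folding and degradation, where it called 5.3% of all genes it tested.

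Between control and NM-DMSO, 12.0% of all tested genes were called higher in control libraries and 11.5% lower, which stands beside each count here. Of the 16 sensors, kinases and phosphatases 6 were called higher in control libraries and 1 lower. Atf6, the ER-anchored sensor whose cleaved form drives chaperone genes, had 113 and 115 CPM in control libraries, against 51.5 and 69.3 CPM in NM-DMSO libraries (log2 fold change 0.92, adjusted p = 0.00605). Eif2ak3, which encodes the kinase PERK, rose by 0.52 (adjusted p = 0.0153), Creb3l2, a relative of Creb3l1, by 0.74 (adjusted p = 0.0216), and Ppp1r15b, a subunit of the eIF2 alpha phosphatase, by 0.49 (adjusted p = 0.0332). Of the 23 other ATF4 targets tested, 6 were called higher and 2 lower in control libraries. They were led by Slc1a5, a glutamine transporter, at 0.79 (adjusted p = 0.00147 by edgeR's quasi-likelihood test). Bbc3, which encodes the pro-apoptotic PUMA, stood at -1.06 (adjusted p = 0.0101 by the same test). Of the 20 aminoacyl-tRNA synthetases 0 were called higher and 1, Farsa, lower. Of the 39 tested genes of ER folding and degradation 9 were called higher and 2, Canx and Derl2, lower.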

How the data were processed

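RNA sequencing counts of 8 libraries were used. Per the labels, RNA was taken with Trizol and libraries followed a poly(A)-enriched/ribo-depleted protocol. The submitters' processing notes name the tools STAR 2.7.10a, featureCounts 2.0.3, Trimmomatic 0.39 and FastQC 0.11.9 and the builds GRCm38 and GRCh38. The sources used here do not give the strand setting, the annotation or how multiply mapped reads were treated. The values deposited by the authors are whole-number counts per gene. Counts were normalised by TMM and fitted with edgeR 4.0.16 (quasi-likelihood test, 1 term per group, all 8 libraries) on the 17038 of 28901 genes kept by filterByExpr. P-values were adjusted by Benjamini-Hochberg over these, with calls at 0.05. CPM are per 1000000 TMM-scaled reads. Per-kilobase levels use exons of GENCODE M21. The members and lists were chosen with earlier results of these data known. All 33 members are described, with up to 4 called genes per other list and comparison. Alternatives were another normalisation, no filter, DESeq2 1.42.0, the pair alone, limma 3.58.1 voom weights, a replicate block and leaving out each library. Reads carry no molecular identifiers, so depth limits precision most for low genes such as Atf3.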

Additional observations from a re-analysis of the deposited data

How the results depend on the processing

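The number of ATF4 branch members called in Brd against control was 1, where 6.58% of all tested genes were called, against 3 with no filter on low counts (6.39% of genes), 3 by DESeq2 (7.8%), 15 in the 4 libraries of the pair alone (40%), 15 by voom with quality weights (34.5%) and 0 to 15 when 1 library was left out. The ER chaperone branch had 0, against 8 in the pair alone, 7 by voom and 0 to 7 with a library left out. In NM-Brdi against NM-DMSO the ATF4 branch had 1 call (1.87% of genes), against 2 with no filter (8.49%), 0 in the pair alone (0 genes), 0 with the replicate block (1.1%) and 0 to 11 with a library left out, and the ER chaperone branch had 0 calls, against 0 to 13. The interaction had 0 calls in each branch, against 0 to 10 in each with a library left out. In control against NM-DMSO the ATF4 branch had 5 calls (23.4% of genes), against 0 in the pair alone (2.26%), 3 by voom (15.2%) and 1 to 13 with a library left out, and the ER chaperone branch had 3, against 0, 1 and 0 to 12. Between the fits that left out either NM-DMSO library the sign differed for 14 of 33 members in the NM pair (6 and 8 by branch), 14 in the interaction (7 and 7) and 13 in control against NM-DMSO (5 and 8). Of these, called with opposite signs in both fits were Aldh1l2 (-0.81 to 0.89), Pdia4 (-0.17 to 0.21) and Sdf2l1 (-0.50 to 0.40) in the NM pair, Aldh1l2 (-1.30 to 0.38) in the interaction, and Atf4 (-0.23 to 0.16), Mthfd2 (-0.17 to 0.28), Hspa5 (-0.20 to 0.19) and Hsp90b1 (-0.21 to 0.18) in control against NM-DMSO. The cause was not tested, and the share of all tested genes whose sign differed was not counted. In every comparison the share of all tested genes called also moved with the library left out. It was highest in the fits without an NM-DMSO library. The ranges of calls with a library left out are therefore not particular to the members. A library left alone in its group is assumed to vary like the others. The labels do not say whether the replicate numbers pair the libraries. Deviations of the same number correlated at 0.0149 between Brd and control, 0.152 between NM-Brdi and NM-DMSO and -0.00286 between control and NM-DMSO. Such values cannot exclude a pairing. Atf3 and Slc7a11 had the lowest counts, which limits what can be read from them.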
